A study of Mus musculus with 8 samples.

Results

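The 10 genes described here make, load or hold back microRNAs (miRNAs). They are Drosha and Dgcr8 of the nuclear Microprocessor, the exporter gene Xpo5, Dicer1 and its partner Tarbp2, the Argonaute genes Ago1, Ago2 and Ago3, and Lin28a and Lin28b, whose proteins block one miRNA family. They were chosen by name from 21975 gene units in tables of mouse pluripotent cell RNA. A unit is a gene symbol, or several symbols that the tables join in a single entry. All 10 were found, and all 10 passed a filter of 1 FPKM or more in 2 or more libraries out of 8. FPKM is the number of fragments scaled to the length of the transcript and to the mapped fragments of the library.

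Dnd1-KD cells were E14tg2a embryonic stem (ES) cells of 129/Ola origin in which Dnd1 had been knocked down, at passages 10 to 12. CDGC1 and CDGC6 were pluripotent lines derived from nascent teratoma cells of newborn testis, at passages 15 to 18, from 129Sv mice homozygous for the Dnd1 ter allele that also carried an Oct4deltaPE-GFP reporter. The control was E14tg2a ES cells, labelled wild type, at passages 10 to 12. All cells grew in serum with LIF, and each of the 4 groups had 2 libraries. Whether the 2 libraries of a group were grown apart is not in the labels, so p-values measure only how these libraries vary, and that variation may be technical. Each derived line stands for itself, and between either of them and control the strain, the Dnd1 genotype, the reporter, the origin and the passage differ together and cannot be told apart.

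In the nucleus, DROSHA and its partner DGCR8 cut a long primary transcript into a hairpin, which exportin-5, the product of Xpo5, carries to the cytoplasm. DICER1, with TRBP from Tarbp2, cuts the hairpin to a duplex, and an Argonaute protein keeps a single strand as its guide. LIN28A and LIN28B bind let-7 precursors and keep them from becoming mature let-7, which in turn can repress Lin28a and Lin28b mRNA through sites in their 3′ UTRs. ES cells are known for high Lin28a and for miRNAs of the miR-290 cluster, and the germ line protein DND1 binds RNA and is known to protect some mRNAs from miRNAs.

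The sequences below show what LIN28 acts on and what let-7 pairs with. The mature let-7 family is printed from RefSeq (GRCm38.p6, the build called mm10), 5′ to 3′, with the seed, bases 2 to 8, in capitals. All 9 forms have the seed GAGGUAG and differ only outside it. Small RNAs were not analysed here, so no miRNA level stands beside them.
let-7a: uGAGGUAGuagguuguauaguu
let-7b: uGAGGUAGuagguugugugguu
let-7c: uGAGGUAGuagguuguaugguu
let-7d: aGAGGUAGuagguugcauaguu
let-7e: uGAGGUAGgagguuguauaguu
let-7f: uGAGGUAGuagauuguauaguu
let-7g: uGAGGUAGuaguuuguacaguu
let-7i: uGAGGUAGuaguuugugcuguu
miR-98: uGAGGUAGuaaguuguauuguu

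The let-7g hairpin, at chr9:106178840-106178927 on the plus strand, is printed as an example of a LIN28 substrate. The capitals mark GGAG, the motif that LIN28 is known to bind in the precursor. Of the 11 let-7 and miR-98 hairpins with both mature arms in the RefSeq table, 8 hold GGAG between the arms. It is found there in 7 of 50 other hairpins (14%) with 23 to 36 bases between the arms, the range of the let-7 hairpins. Only the transcribed strand was searched.
pre-let-7g: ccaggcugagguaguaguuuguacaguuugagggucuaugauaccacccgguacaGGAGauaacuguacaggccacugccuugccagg

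The let-7 seed match CTACCTC was searched on the mRNA strand of the longest 3′ UTR of each gene in GENCODE vM21. Lin28a holds 2 matches, and 14.5% of the 2408 UTRs within 20% of its length hold at least 1. Lin28b holds 4, and 23.8% of 1258 UTRs of such length hold at least 1. The matches are printed in capitals on the transcribed strand of mm10, both genes being on the minus strand. Lin28a site 1 is at chr4:134005187-134005211 and site 2 at chr4:134004549-134004573. The Lin28b sites 1 to 4 are at chr10:45381020-45381044, chr10:45378646-45378670, chr10:45378474-45378498 and chr10:45377058-45377082.
Lin28a site 1: gcacagcctgttgaaCTACCTCatt
Lin28a site 2: gagatcgccacaaacCTACCTCact
Lin28b site 1: acccgggcgggaagtCTACCTCatg
Lin28b site 2: tatacttgttagtaaCTACCTCtga
Lin28b site 3: gtttacagcacatggCTACCTCcca
Lin28b site 4: aaatgatggcaccgaCTACCTCttc

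Ago2 holds 3 matches, Ago3 1 and Tarbp2 1, where 44.6% of 74, 52.4% of 42 and 2.73% of 1719 UTRs within 20% of the length of each hold at least 1, while Drosha, Dgcr8, Xpo5, Dicer1 and Ago1 hold none. The shares of UTRs of such length with a match were 0.955% for Drosha, 10.4% for Dgcr8, 9.36% for Xpo5, 20.3% for Dicer1 and 23.8% for Ago1. The miR-290 cluster is represented by 3 of its mature forms, which share the seed AAGUGCU, in capitals. Its match AGCACTT occurs 3 times in the 3′ UTR of Ago3 and 1 time in that of Lin28b, and in none of the other 8. Of the UTRs within 20% of their lengths, 78.6% of 42 for Ago3 and 41.1% of 1258 for Lin28b hold it. For the other 8 genes that share ran from 1.67% for Drosha to 79.7% for Ago2.
miR-291a-3p: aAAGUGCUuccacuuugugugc
miR-294-3p: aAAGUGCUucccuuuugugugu
miR-295-3p: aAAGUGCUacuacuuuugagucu

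Differences are given on the log2(FPKM + 1) scale with limma's standard error over all 8 libraries, and p-values were adjusted by the Benjamini-Hochberg method over all 11878 units tested, with a threshold of 0.05. Against control, 2 of the 10 genes passed in Dnd1-KD, Drosha and Lin28a, both lower, where 36.2% of all units passed (20.7% higher and 15.5% lower). In CDGC1, 4 of the 10 passed against control, with Ago1, Lin28a and Lin28b higher and Drosha lower, where 50.5% of all units passed (23.5% higher and 27.0% lower). In CDGC6, Lin28b was higher and Drosha lower, 2 of 10, where 18.7% of all units passed (8.46% higher and 10.2% lower). Only Lin28b passed in CDGC1 against CDGC6, higher in CDGC1, where 47.1% of all units passed (23.0% higher and 24.2% lower). The share of members called was under the background in these comparisons except CDGC6 against control, where the 2 genes are 20% of the members and close to the background. The median difference of the 10 genes was −0.18 in Dnd1-KD, 0.09 in CDGC1 and −0.10 in CDGC6 against control, beside medians of 0.02, −0.03 and −0.01 over all units. Against the Dnd1-KD cells, 4 of the 10 genes were called in CDGC1, all higher, where 61.7% of all units were called (26.7% higher and 35.0% lower). In CDGC6 4 were called, 3 of them higher, where 53.6% of all units were called (24.3% higher and 29.3% lower).

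**Figure D1:**
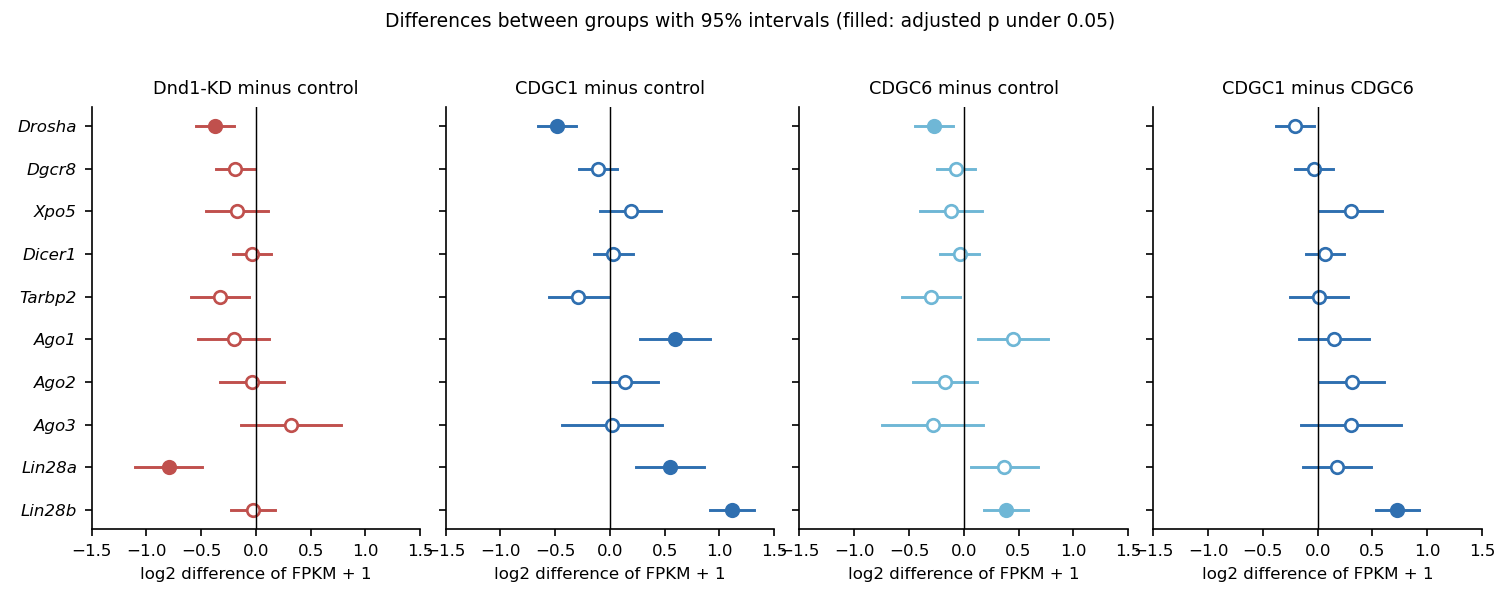
Differences of the 10 genes on the log2(FPKM + 1) scale with 95% intervals (limma), from left to right for Dnd1-KD, CDGC1 and CDGC6 minus control and for CDGC1 minus CDGC6. Filled points passed at an adjusted p of 0.05: Drosha lies left of 0 in the 3 panels against control, Lin28a is at −0.80 in Dnd1-KD and 0.55 in CDGC1, and Lin28b reaches 1.11 in CDGC1.

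The libraries were first set against their labels. Dnd1 has no value of its own, because the tables of the Dnd1-KD libraries join it with Hars, a histidyl-tRNA synthetase gene. The summed entry was 57.6 and 53.9 FPKM in Dnd1-KD, 81.4 and 71.5 in CDGC1, 60.1 and 63.4 in CDGC6, and 65.8 and 65.0 in control. The knockdown could not be checked from it, so the group is named by its label. Hprt, which E14tg2a cells are known to lack in working form, was 0.533 and 0.642 FPKM in Dnd1-KD, 121 to 133 FPKM in the 4 libraries of the derived lines, and 0.359 and 0.455 FPKM in control. The 4 pluripotency genes listed, Pou5f1, Sox2, Nanog and Sall4, summed to 631 to 768 FPKM in Dnd1-KD, 1208 to 1268 in CDGC1, 1438 to 1676 in CDGC6 and 1283 to 1292 in control. Pou5f1 was the highest of the 4 in every library. In CDGC1, Sox2 was 75.1 and 79.6 FPKM against 158 and 167 in control, and Sall4 45.1 and 39.4 against 56.0 and 53.3. Pou5f1 was 951 and 1027 there against 944 and 934, and Nanog overlapped control (137 and 122 against 134 and 128). The 6 markers of fibroblasts or feeder cells summed to 9.45 to 9.89 FPKM in Dnd1-KD (3 of 6 at 1 FPKM or more), 31.7 to 33.5 in CDGC1 (5 of 6), 23.3 to 31.2 in CDGC6 (5 of 6) and 6.24 to 6.87 in control (2 of 6), mostly collagens, with Lum at or near 0 throughout. The 5 endoderm markers summed to at most 5.03 FPKM in Dnd1-KD, 8.85 to 41.1 in CDGC1, nearly all of it Foxa2, 3.41 to 7.09 in CDGC6, and 1.21 to 1.26 in control. Of 4 leukocyte markers, Ptprc, Lyz2 and Csf1r were under 1 FPKM in all libraries, and Cd68 had only an entry joined with 5 other symbols. Among 5 markers of testis somatic cells only Insl3, in an entry of 2 symbols, was above 1 FPKM. In bulk RNA, fewer cells of a type and less RNA per cell cannot be told apart.

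**Figure D2:**
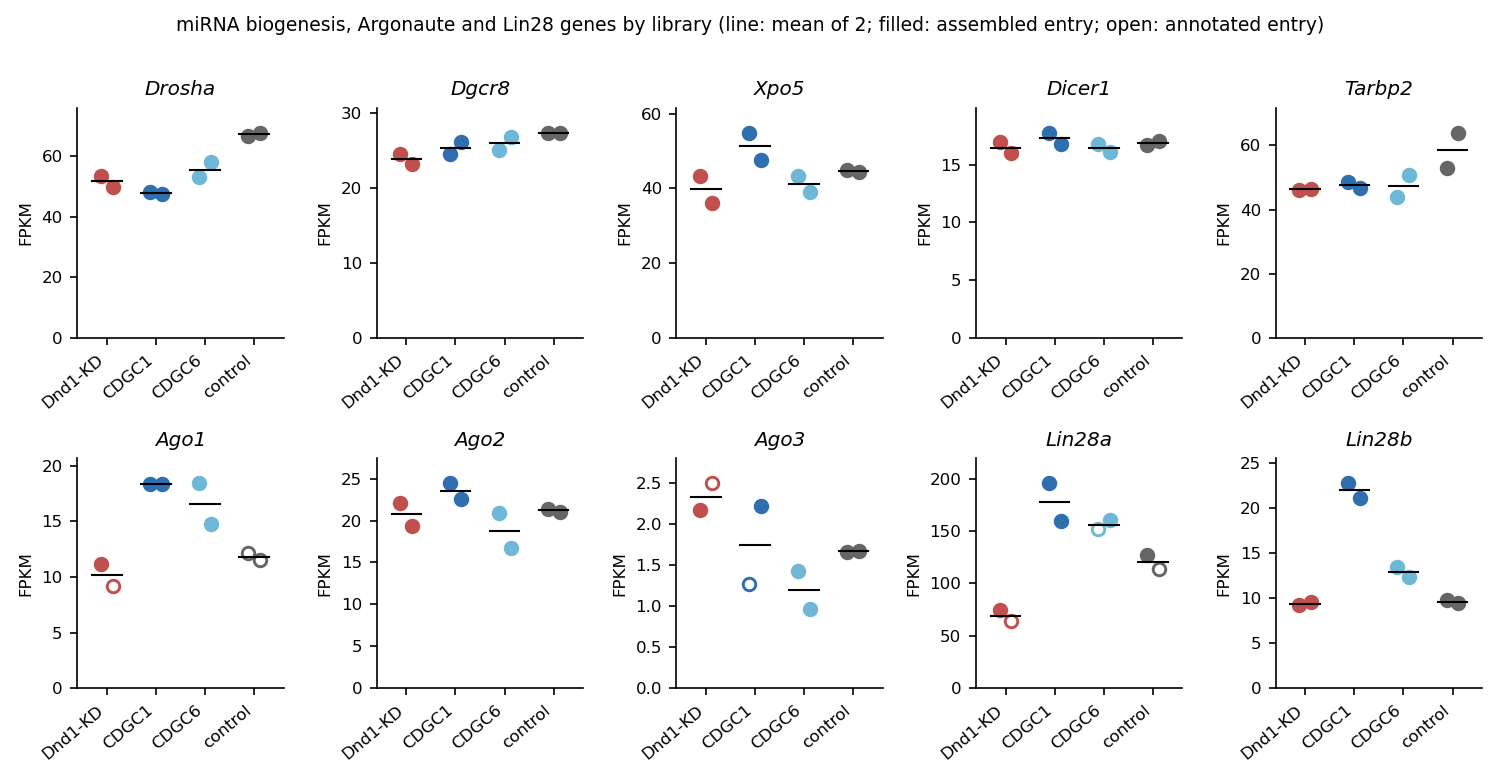
FPKM of the 10 genes in each of the 8 libraries, by group, with a line at the mean of the 2 libraries. Filled points are entries that the tables give under an assembly number and open points entries under the gene's own name. Dicer1 stays between 16.0 and 17.8 FPKM, Lin28b is high in CDGC1, and Lin28a is low in Dnd1-KD.

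Of the Microprocessor genes, Drosha was called lower than control in each of the 3 comparisons, which share the same 2 control libraries. Drosha encodes the RNase III enzyme that makes the first cut, and it lies on chromosome 15 from 12824815 to 12935291 (mm10, plus strand). It stood at 53.5 and 49.8 FPKM in Dnd1-KD, 48.3 and 47.5 in CDGC1, 53.1 and 58.0 in CDGC6, and 66.6 and 67.8 in control. The control libraries were the highest, and none of the other 6 libraries reached them. Drosha fell by 0.37 ± 0.07 in Dnd1-KD (adjusted p = 0.0105), to 0.768 of the control mean. It fell by 0.48 ± 0.07 in CDGC1 (adjusted p = 0.00207), to 0.712 of the control mean, and this call held under all 18 alternative settings. In CDGC6 the difference was −0.27 ± 0.07 (adjusted p = 0.0461). Neither CDGC1 nor CDGC6 differed from Dnd1-KD by the test (−0.11, 95% interval −0.28 to 0.06, adjusted p = 0.233, and 0.10, −0.07 to 0.27, adjusted p = 0.261), nor did CDGC1 from CDGC6 (−0.21, −0.38 to −0.04, adjusted p = 0.0511). Drosha did pass in CDGC1 against Dnd1-KD with quantile normalization (0.0342), and in CDGC1 against CDGC6 with quantile normalization (0.0240), a pseudocount of 0.1 (0.0491), no filter (0.0499) or without CDGC6 library 1 (0.0400). The Dnd1-KD call was lost without control library 1, control library 2 or Dnd1-KD library 2 (adjusted p = 0.0694, 0.0727 and 0.0566). The CDGC6 call was lost under 12 of 18 alternatives, among them the omission of either control library (0.191 and 0.221), either CDGC6 library (0.131 and 0.0557) or either Dnd1-KD library (0.0567 and 0.0566).

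Dgcr8 encodes the RNA-binding partner that holds the primary transcript for DROSHA and lies on chromosome 16 from 18253948 to 18289246 (minus strand). The files give it only in an entry joined with the small RNA genes Gm24572 and Mir1306. The Mir1306 hairpin lies in a coding exon of Dgcr8, in the only basic coding transcript of the annotation, and is printed with its mature arms in capitals to show the shared stretch (chr16:18284239-18284317, minus strand, RefSeq).
Mir1306: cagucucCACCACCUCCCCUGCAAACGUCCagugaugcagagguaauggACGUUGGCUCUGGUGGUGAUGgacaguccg

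The joint Dgcr8 value was 24.6 and 23.2 FPKM in Dnd1-KD, 24.6 and 26.1 in CDGC1, 25.1 and 26.8 in CDGC6, and 27.4 and 27.3 in control. The deposited interval around it runs down to 0 in all 8 libraries, so the tables set no precision for a single library. All 6 other libraries lay below control, but by little: the differences from control were −0.19 ± 0.07 in Dnd1-KD (adjusted p = 0.0854), −0.11 ± 0.07 in CDGC1 (adjusted p = 0.260) and −0.07 ± 0.07 in CDGC6 (adjusted p = 0.501). The Dnd1-KD difference passed with quantile normalization (−0.24, adjusted p = 0.0328) and with median-ratio scaling (−0.24, adjusted p = 0.0394). Over all 8 libraries the highest Dgcr8 value was 1.18 times the lowest, a range narrower than in all but 0.961% of the 11240 units with no library at 0. The ratio of Drosha to Dgcr8 was 2.18 and 2.14 in Dnd1-KD, 1.96 and 1.82 in CDGC1, 2.11 and 2.16 in CDGC6, and 2.43 and 2.48 in control. It was highest in the 2 control libraries.

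Hairpin export showed no call against control. Xpo5 (chromosome 17, 46202782 to 46243598, plus strand) stood at 43.4 and 36.1 FPKM in Dnd1-KD, 55.0 and 47.5 in CDGC1, 43.3 and 39.0 in CDGC6, and 45.0 and 44.4 in control. Both CDGC1 libraries lay above all others, and the libraries within CDGC1 and within Dnd1-KD were further apart than those of control. The differences from control were −0.17 in Dnd1-KD (95% interval −0.45 to 0.11), 0.19 in CDGC1 (−0.09 to 0.47) and −0.12 in CDGC6 (−0.40 to 0.16), with adjusted p = 0.293, 0.223 and 0.502. Xpo5 was higher in CDGC1 than in Dnd1-KD by 0.36 ± 0.12 (adjusted p = 0.0349). That call was lost in 6 of 18 alternatives, among them the omission of CDGC1 library 1 (adjusted p = 0.146), Dnd1-KD library 2 (0.162) or either control library (0.0612 and 0.0611).

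Dicer1, which cuts the exported hairpin, was the most even of the 10 genes. It lies on chromosome 12 from 104687742 to 104751952 (minus strand) and stood at 16.9 and 16.0 FPKM in Dnd1-KD, 17.8 and 16.8 in CDGC1, 16.8 and 16.1 in CDGC6, and 16.7 and 17.1 in control. Every group overlapped every other, and the highest library was 1.11 times the lowest, where the median over units was 2.10 and only 0.142% of units had a smaller ratio. The 95% intervals of its difference from control were −0.21 to 0.14 in Dnd1-KD, −0.14 to 0.21 in CDGC1 and −0.21 to 0.14 in CDGC6 (adjusted p = 0.747, 0.749 and 0.751).

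Tarbp2 encodes the double-stranded RNA-binding partner of DICER1 and lies on chromosome 15 from 102518192 to 102523676 (plus strand). It stood at 46.2 and 46.4 FPKM in Dnd1-KD, 48.5 and 46.6 in CDGC1, 43.9 and 50.7 in CDGC6, and 53.1 and 64.0 in control. The control libraries were the highest but were also the furthest apart. The differences from control were −0.33 ± 0.11 in Dnd1-KD, −0.29 ± 0.11 in CDGC1 and −0.30 ± 0.11 in CDGC6, and missed the threshold (adjusted p = 0.0614, 0.0708 and 0.108). Without control library 1 the CDGC1 difference passed (−0.42, adjusted p = 0.0401).

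Among the Argonautes, which bind the mature miRNA, Ago1 had its highest values in the derived lines, and Ago2 passed in none of the 6 comparisons. Ago2 encodes the Argonaute that can cut its target, and it lies on chromosome 15 from 73095844 to 73184935 (minus strand), where Chrac1 overlaps it on the other strand. It stood at 22.1 and 19.3 FPKM in Dnd1-KD, 24.5 and 22.5 in CDGC1, 20.9 and 16.8 in CDGC6, and 21.4 and 21.0 in control. Its differences from control were −0.03 in Dnd1-KD (95% interval −0.33 to 0.26), 0.14 in CDGC1 (−0.15 to 0.44) and −0.17 in CDGC6 (−0.47 to 0.12), with adjusted p = 0.854, 0.369 and 0.352. Both CDGC1 libraries lay above both CDGC6 libraries, a difference of 0.31 (95% interval 0.02 to 0.61, adjusted p = 0.0766) that passed without CDGC6 library 1, the higher of its pair (0.46, adjusted p = 0.0258).

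Ago1 lies on chromosome 4 from 126435012 to 126468583 (minus strand), next to Ago3. It stood at 11.2 and 9.18 FPKM in Dnd1-KD, 18.4 and 18.4 in CDGC1, 18.5 and 14.8 in CDGC6, and 12.1 and 11.5 in control. All 4 libraries of the derived lines lay above the other 4. Ago1 rose in CDGC1 by 0.60 ± 0.13 (adjusted p = 0.0107), to 1.55 times the control mean. In CDGC6 the difference was 0.45 ± 0.13 (adjusted p = 0.0612), which passed with quantile normalization (0.0424), with median-ratio scaling (0.0460) and without CDGC6 library 2 (0.0496). CDGC1 and CDGC6 both exceeded Dnd1-KD, by 0.80 ± 0.13 (adjusted p = 0.00247) and 0.66 ± 0.13 (adjusted p = 0.00725), and these calls held under all 18 alternatives. CDGC1 and CDGC6 overlapped each other (0.14, 95% interval −0.18 to 0.46, adjusted p = 0.403). Dnd1-KD lay below control without passing the test (−0.20, −0.52 to 0.11, adjusted p = 0.269). The CDGC1 call against control was lost without control library 2 (0.56, adjusted p = 0.0628).

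The kind of table entry moved with the Ago1 values. In both control libraries and in Dnd1-KD library 2, Ago1 is listed under its own name, and in the other 5 libraries under an assembly number. Over genes whose entry kind differs between the 2 libraries of a group, the assembled entry was 1.06 times the named one in the median in Dnd1-KD (1480 genes) and CDGC1 (2546 genes), 1.05 times in CDGC6 (2550 genes) and 1.02 times in control (1247 genes). Single genes varied more. On the log2 scale the lower and upper quartiles were −0.05 and 0.23 in Dnd1-KD, −0.10 and 0.32 in CDGC1, −0.08 and 0.23 in CDGC6, and −0.02 and 0.12 in control. Its part in the Ago1 difference was not tested, nor was that of the fibroblast or feeder markers, whose sums given above were also higher in the derived lines. Between the derived lines and control, the kind of the Ago1 entry and the group cannot be told apart.

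Ago3 (chromosome 4, 126331704 to 126429556, minus strand) was the lowest member, at 2.17 and 2.50 FPKM in Dnd1-KD, 1.27 and 2.21 in CDGC1, 1.43 and 0.967 in CDGC6, and 1.66 and 1.67 in control. The CDGC1 libraries fell on both sides of control. The differences from control were 0.32 ± 0.19 in Dnd1-KD, 0.02 ± 0.19 in CDGC1 and −0.29 ± 0.19 in CDGC6 (adjusted p = 0.229, 0.946 and 0.322), on a scale whose added 1 FPKM understates changes of so low a gene. The Dnd1-KD difference passed where the compared groups were fitted alone (0.0348). CDGC6 was below Dnd1-KD by −0.61 ± 0.19 (adjusted p = 0.0350), a call lost under 7 of 17 alternatives. Among these were the omission of CDGC6 library 2 (0.156), either control library (0.0599 and 0.0601) or either Dnd1-KD library (0.0787 and 0.146).

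Within each library, the shares of the Argonautes do not depend on how the library was scaled. Ago4, which missed the filter at 0.0612 to 0.447 FPKM, was included in the sum. Ago1 made up 31.2% and 29.2% of the summed Ago1 to Ago4 FPKM in Dnd1-KD, 41.6% and 42.5% in CDGC1, 45.1% and 45.3% in CDGC6, and 34.1% and 33.5% in control. Ago2 made up 61.7% and 61.5% in Dnd1-KD, 55.4% and 52.1% in CDGC1, 50.9% and 51.3% in CDGC6, and 60.2% and 61.1% in control. The derived lines thus held less Ago2 per Ago1, with ratios of 1.33 and 1.23 in CDGC1 and 1.13 and 1.13 in CDGC6, against 1.76 and 1.82 in control, while Dnd1-KD had 1.98 and 2.11. The kind of the Ago1 entry differed between control and the derived lines, as given above, while Ago2 was an assembled entry in all 8 libraries. The part of the entry kind in these shares and ratios was not tested, and no test was run on the ratios.

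**Figure D3:**
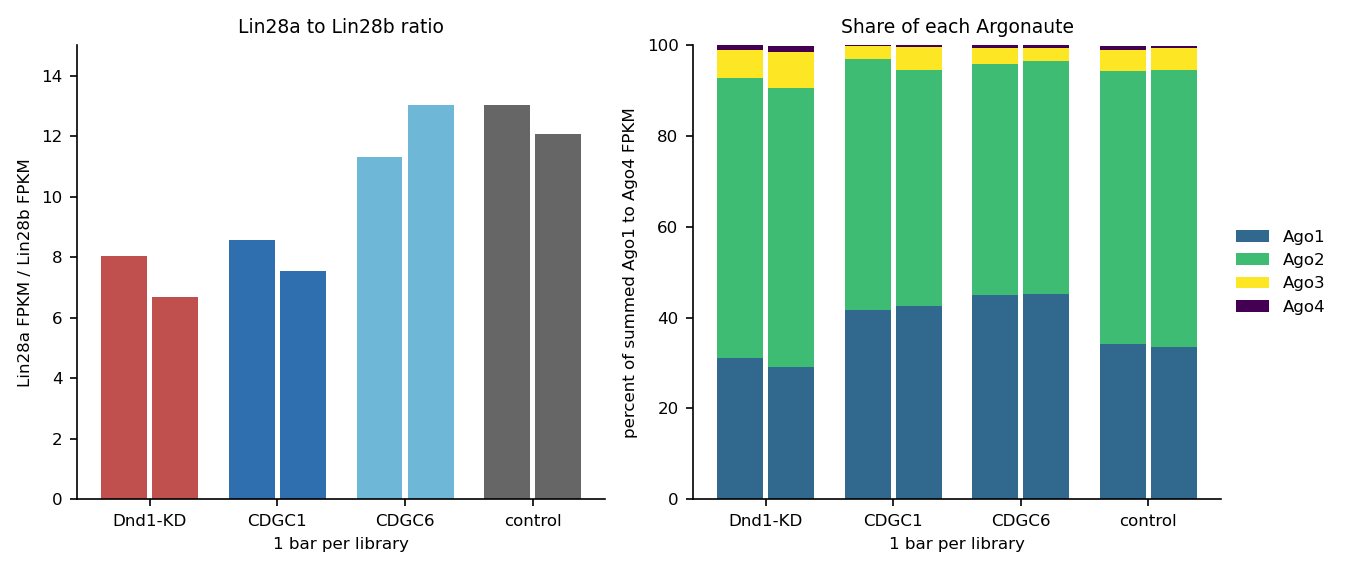
Left, the ratio of Lin28a to Lin28b FPKM in each library, and right, the share of each Argonaute in the summed Ago1 to Ago4 FPKM, with 1 bar per library. The Lin28a to Lin28b ratio is 6.67 to 8.58 in Dnd1-KD and CDGC1 and 11.3 to 13.0 in CDGC6 and control, and the Ago1 share is 41.6% to 45.3% in the derived lines and 29.2% to 34.1% in Dnd1-KD and control.

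Lin28a and Lin28b moved differently across the groups. Lin28a, the LIN28 gene typical of ES cells, lies on chromosome 4 from 134003330 to 134018841 (minus strand) and was the highest member in every library. It stood at 74.6 and 63.7 FPKM in Dnd1-KD, 196 and 160 in CDGC1, 152 and 161 in CDGC6, and 127 and 114 in control. Dnd1-KD lay below and both derived lines above the control libraries, with no overlap, while CDGC1 and CDGC6 overlapped each other.

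Lin28a fell by 0.80 ± 0.13 in Dnd1-KD (adjusted p = 0.00634), to 0.573 of the control mean, and this call held under all 18 alternatives, where adjusted p was at most 0.0486. The pluripotency gene Pou5f1 moved with it, at 531 and 457 FPKM in Dnd1-KD, against 944 and 934 FPKM in control, as did the marker sum given above, and its part in the Lin28a difference was not tested. Lin28a rose in CDGC1 by 0.55 ± 0.13 (adjusted p = 0.0126), to 1.47 times the control mean. In CDGC6 the difference was 0.37 ± 0.13 (95% interval 0.06 to 0.68, adjusted p = 0.0914), which passed only where the compared groups were fitted alone (0.0487). CDGC1 exceeded Dnd1-KD by 1.35 ± 0.13 (adjusted p = 0.000255) and CDGC6 exceeded it by 1.17 ± 0.13 (adjusted p = 0.000819), while CDGC1 and CDGC6 did not differ by the test (0.18, −0.13 to 0.49, adjusted p = 0.290). The CDGC1 call against control was lost without control library 2 (0.47, adjusted p = 0.0741). Lin28a is a named entry in Dnd1-KD library 2, CDGC6 library 1 and control library 2 and an assembled one elsewhere, and in each of these 3 groups the named entry was the lower of the pair.

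Lin28b, the paralog that also blocks let-7 and is known from fetal and tumour cells, lies on chromosome 10 from 45376620 to 45486395 (minus strand). It stood at 9.28 and 9.54 FPKM in Dnd1-KD, 22.8 and 21.2 in CDGC1, 13.4 and 12.3 in CDGC6, and 9.77 and 9.45 in control. The CDGC1 libraries were well above all others, CDGC6 lay between, and Dnd1-KD and control overlapped. Lin28b rose in CDGC1 by 1.11 ± 0.08 (adjusted p = 0.000126), to 2.29 times the control mean, and in CDGC6 by 0.39 ± 0.08 (adjusted p = 0.0262), to 1.34 times the control mean. CDGC1 exceeded CDGC6 by 0.73 ± 0.08 (95% interval 0.53 to 0.93, adjusted p = 0.000824). The calls of CDGC1 against control, against CDGC6 and against Dnd1-KD (1.14 ± 0.08, adjusted p = 9.10e-05), and of CDGC6 against Dnd1-KD (0.41 ± 0.08, adjusted p = 0.00664), held under all 18 alternatives. The call of CDGC6 against control was lost without control library 1, control library 2 or CDGC6 library 1 (adjusted p = 0.137, 0.170 and 0.0761). Dnd1-KD did not differ from control by the test (−0.03, 95% interval −0.22 to 0.17, adjusted p = 0.822). The assembled Lin28b entry ends at 45470201 in CDGC1 library 2 and CDGC6 library 2 and at 45485649 or beyond in the other 6, and in both lines that library was the lower of the pair. Fibroblast or feeder markers also stood higher in the derived lines than in control, with the sums given above. The part of either in the Lin28b difference was not tested.

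Lin28a averaged 69.1 ± 7.74 FPKM in Dnd1-KD, 178 ± 25.6 in CDGC1, 156 ± 6.28 in CDGC6 and 121 ± 9.33 in control (SD, n = 2 each). Its means ran in the order Dnd1-KD, control, CDGC6, CDGC1 from low to high, and of these neighbours only Dnd1-KD and control differed by the test. Lin28b averaged 9.41 ± 0.185 FPKM in Dnd1-KD, 22.0 ± 1.17 in CDGC1, 12.9 ± 0.776 in CDGC6 and 9.61 ± 0.226 in control (SD, n = 2 each). Its means ran in the same order, but here all neighbours other than Dnd1-KD and control differed by the test. The ratio of Lin28a to Lin28b was 8.04 and 6.67 in Dnd1-KD, 8.58 and 7.55 in CDGC1, 11.3 and 13.0 in CDGC6, and 13.0 and 12.1 in control. The 4 libraries of Dnd1-KD and CDGC1 lay below the other 4, at very unlike levels of both genes, and no test was run on the ratio.

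The genes around the 10 members were taken from 6 lists of the same pathway, 46 genes in all, of which 45 passed the filter and Ago4 did not. Each list is given by its count against the shares of all units stated above. Among 8 Microprocessor cofactors, 1 rose and 3 fell in Dnd1-KD and 1 rose and 1 fell in CDGC1. In CDGC6 limma called 0 of the 8, with 1 at an unadjusted p under 0.05. Srrt, whose product ARS2 links the nuclear cap to miRNA processing, was 109 and 107 FPKM in Dnd1-KD, 80.5 and 98.5 in CDGC1, 124 and 126 in CDGC6, and 139 and 148 in control. It fell by 0.68 ± 0.10 in CDGC1 (adjusted p = 0.00205) in all 18 alternatives, and fell by 0.41 ± 0.10 in Dnd1-KD (adjusted p = 0.0231), a call lost without either control or either Dnd1-KD library (0.0859, 0.120, 0.0707 and 0.104). The helicase gene Ddx5 was 412 and 535 FPKM in Dnd1-KD, 326 and 319 in CDGC1, 302 and 329 in CDGC6, and 336 and 320 in control. It rose in Dnd1-KD by 0.52 ± 0.13 (adjusted p = 0.0229), a call lost without Dnd1-KD library 2 (0.0586) or either control library (0.0890 and 0.109).

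**Figure D4:**
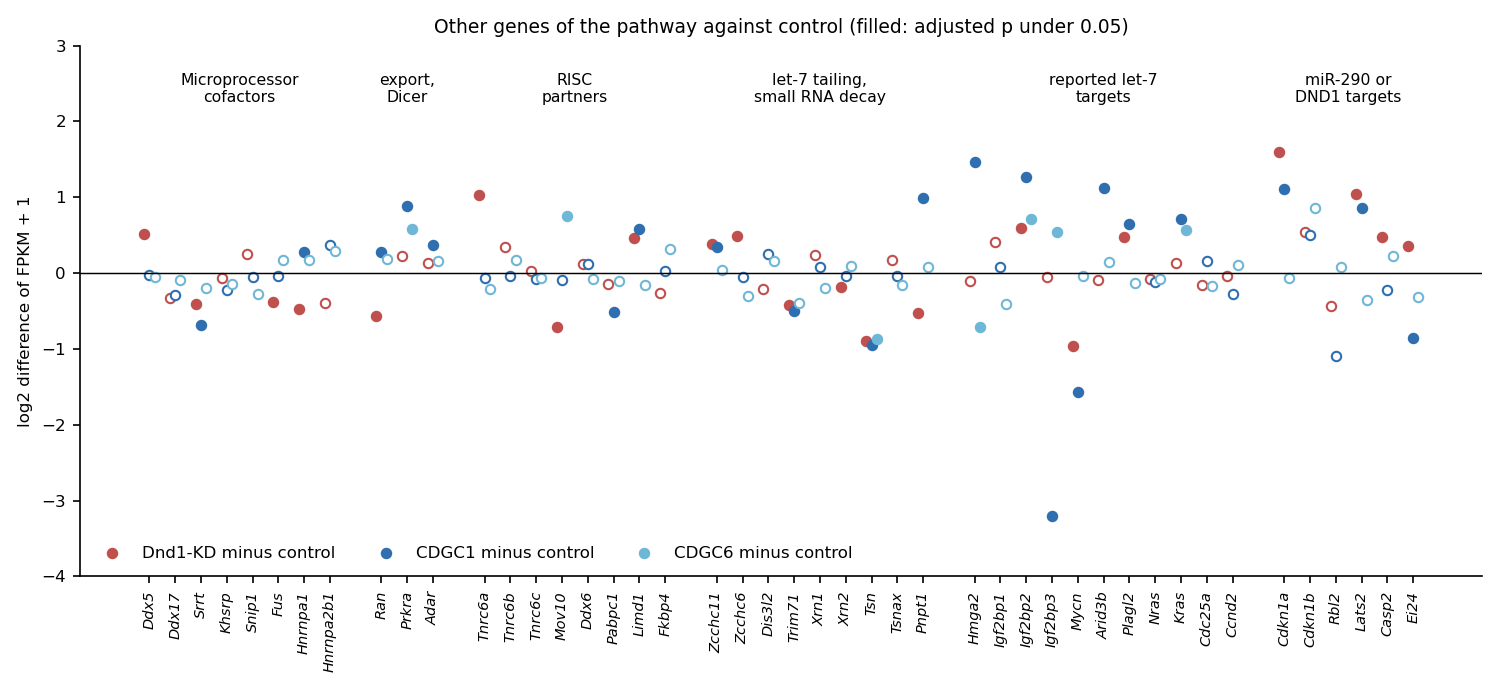
Differences of the other 45 pathway genes from control on the log2(FPKM + 1) scale in Dnd1-KD, CDGC1 and CDGC6, by list. Filled points passed at an adjusted p of 0.05. Tsn lies near −0.9 in all 3 groups, Cdkn1a is at 1.60 in Dnd1-KD and 1.11 in CDGC1, and Igf2bp3 is at −3.21 in CDGC1.

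Of the 3 export and Dicer partners, 1 fell in Dnd1-KD, all 3 rose in CDGC1 and 1 rose in CDGC6. Ran, the GTPase that exportin-5 needs to bind its cargo, stood at 285 and 283 FPKM in Dnd1-KD, 514 and 506 in CDGC1, 457 and 498 in CDGC6, and 415 and 425 in control. It fell by 0.56 ± 0.06 in Dnd1-KD (adjusted p = 0.00242) in all 18 alternatives. Prkra, whose product PACT binds DICER1 as TRBP does, was 7.91 and 7.20 FPKM in Dnd1-KD, 11.9 and 13.1 in CDGC1, 10.5 and 9.36 in CDGC6, and 6.41 and 6.20 in control. It rose in CDGC1 by 0.89 ± 0.10 (adjusted p = 0.000636) in all 18 alternatives. In CDGC6 Prkra rose by 0.58 ± 0.10 (adjusted p = 0.0135), a call lost without control library 1 or 2 (0.0897 and 0.103).

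Of the 8 RISC partners tested, 2 rose and 1 fell in Dnd1-KD, 1 rose and 1 fell in CDGC1, and 1 rose in CDGC6. Tnrc6a, a GW182 scaffold that Argonaute recruits for silencing, was 35.9 and 28.7 FPKM in Dnd1-KD, 14.8 and 14.2 in CDGC1, 13.2 and 13.1 in CDGC6, and 15.3 and 15.3 in control, and rose in Dnd1-KD by 1.02 ± 0.11 (adjusted p = 0.00223) in all 18 alternatives. Limd1, whose LIM protein bridges Argonaute and GW182, was 9.47 and 8.83 FPKM in Dnd1-KD, 10.4 and 9.79 in CDGC1, 5.77 and 5.53 in CDGC6, and 6.47 and 6.31 in control. It rose in CDGC1 by 0.59 ± 0.08 (adjusted p = 0.00176) in all 18 alternatives, and in Dnd1-KD by 0.46 ± 0.08 (adjusted p = 0.00925), a call lost without control library 1 (0.0692) or 2 (0.0722). Pabpc1, which encodes a poly(A)-binding protein, was 800.1 and 800.5 FPKM in Dnd1-KD, 600.1 and 638 in CDGC1, 835 and 808 in CDGC6, and 871 and 892 in control. It fell by 0.51 ± 0.06 in CDGC1 (adjusted p = 0.000871) in all 18 alternatives. The helicase gene Mov10 was 17.4 and 12.0 FPKM in Dnd1-KD, 22.5 and 23.0 in CDGC1, 41.5 and 41.6 in CDGC6, and 24.2 and 24.5 in control. Its fall in Dnd1-KD (−0.72 ± 0.16, adjusted p = 0.0166) and its rise in CDGC6 (0.75 ± 0.16, adjusted p = 0.0256) were both lost without control library 1 (0.0823 and 0.127) or control library 2 (0.0787 and 0.123), and the rise also without CDGC6 library 1 or 2 (0.0824 and 0.0900).

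Of 9 genes of let-7 tailing and small RNA decay, 2 rose and 4 fell in Dnd1-KD, 2 rose and 2 fell in CDGC1, and 1 fell in CDGC6. Tsn, which encodes translin of the translin-TRAX RNase, stood at 40.4 and 39.6 FPKM in Dnd1-KD, 38.5 and 37.9 in CDGC1, 39.7 and 41.4 in CDGC6, and 71.6 and 78.6 in control. Its differences from control were −0.89 ± 0.07 in Dnd1-KD, −0.96 ± 0.07 in CDGC1 and −0.87 ± 0.07 in CDGC6 (adjusted p = 0.000937, 0.000118 and 0.00141), all called in all 18 alternatives. The 3 comparisons share the 2 control libraries. Pnpt1, whose product is a polynucleotide phosphorylase of mitochondria, was 28.9 and 29.6 FPKM in Dnd1-KD, 80.9 and 91.1 in CDGC1, 45.5 and 44.6 in CDGC6, and 43.5 and 41.9 in control. It fell by 0.53 ± 0.07 in Dnd1-KD (adjusted p = 0.00443) and rose in CDGC1 by 0.99 ± 0.07 (adjusted p = 0.000142), both in all 18 alternatives. Zcchc11, also known as Tut4, whose product adds uridines to pre-let-7 held by LIN28A, was 18.1 and 18.1 FPKM in Dnd1-KD, 17.6 and 17.7 in CDGC1, 14.9 and 13.4 in CDGC6, and 13.8 and 13.5 in control. It rose in CDGC1 by 0.35 ± 0.08 (adjusted p = 0.0107), a call lost without control library 1 (0.0635) or 2 (0.0752). In Dnd1-KD it rose by 0.38 ± 0.08 (adjusted p = 0.0129), a call lost without Dnd1-KD library 2 (0.0614) or control library 1 (0.0840) or 2 (0.0870).

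Of 11 genes reported as let-7 targets, 2 rose and 1 fell in Dnd1-KD, 5 rose and 2 fell in CDGC1, and 3 rose and 1 fell in CDGC6. Hmga2, an architectural chromatin protein gene with let-7 sites, stood at 16.2 and 14.6 FPKM in Dnd1-KD, 49.5 and 45.8 in CDGC1, 10.1 and 9.45 in CDGC6, and 17.2 and 16.0 in control. It rose in CDGC1 by 1.47 ± 0.09 (adjusted p = 6.34e-05) and exceeded CDGC6 there by 2.18 ± 0.09 (adjusted p = 2.13e-05). In CDGC6 it fell by 0.71 ± 0.09 (adjusted p = 0.00575), a call lost without control library 1 (0.0562). Igf2bp3, an mRNA-binding protein gene, went the other way, at 24.2 and 23.2 FPKM in Dnd1-KD, 1.97 and 1.58 in CDGC1, 37.4 and 34.7 in CDGC6, and 24.1 and 25.0 in control. It fell by 3.21 ± 0.09 in CDGC1 (adjusted p = 6.63e-06), and CDGC6 was the highest group. Mycn, a MYC family transcription factor gene, was 57.8 and 50.1 FPKM in Dnd1-KD, 38.8 and 31.6 in CDGC1, 99.4 and 106 in CDGC6, and 106 and 106 in control. It fell by 0.96 ± 0.12 in Dnd1-KD (adjusted p = 0.00286) and fell by 1.56 ± 0.12 in CDGC1 (adjusted p = 0.000133). In CDGC1, where Lin28b was highest, reported let-7 targets thus stood both above and below control, and the part of the fibroblast or feeder markers in these values was not tested.

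Of 6 genes reported as targets of the miR-290 family or as mRNAs that DND1 protects, 4 rose in Dnd1-KD, and 2 rose and 1 fell in CDGC1. The list pools both kinds, which were not counted apart. The 4 were Cdkn1a, Lats2, Ei24 and Casp2. In CDGC6 limma called 0 of the 6, with 2 at an unadjusted p under 0.05. Cdkn1a, which encodes the cell cycle inhibitor p21, was 79.8 and 92.8 FPKM in Dnd1-KD, 71.2 and 52.4 in CDGC1, 24.8 and 28.2 in CDGC6, and 26.8 and 28.7 in control. It rose by 1.60 ± 0.16 in Dnd1-KD (adjusted p = 0.00184) and 1.11 ± 0.16 in CDGC1 (adjusted p = 0.00187). Lats2, a kinase gene of the Hippo pathway, was 6.27 and 7.51 FPKM in Dnd1-KD, 5.97 and 5.85 in CDGC1, 2.15 and 1.82 in CDGC6, and 2.74 and 2.90 in control. It rose by 1.04 ± 0.11 in Dnd1-KD (adjusted p = 0.00223) and 0.86 ± 0.11 in CDGC1 (adjusted p = 0.00132), and the Cdkn1a and Lats2 calls held under all 18 alternatives. Ei24 was 72.0 and 67.1 FPKM in Dnd1-KD, 31.6 and 27.5 in CDGC1, 40.9 and 45.6 in CDGC6, and 54.3 and 53.7 in control. It fell by 0.85 ± 0.09 in CDGC1 (adjusted p = 0.000617) in all 18 alternatives. In Dnd1-KD it rose by 0.36 ± 0.09 (adjusted p = 0.0279), a call lost without either Dnd1-KD library (0.109 and 0.0739) or either control library (0.121 and 0.125). Cdkn1a and Ei24 are also known as p53 targets.

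The genes whose log2(FPKM + 1) pattern over the 8 libraries was most like 4 of the members were sought among 10611 units. Likeness was Pearson's r, given as a description with no p, since the libraries of a group are not independent points. Most like Lin28a were Gm5803 (r = 0.995), Kptn (0.994) and Banf1 (0.993), and most like Lin28b were Pbx3 (0.999), Dclk1 (0.997) and Mogat2 (0.997). Pbx3, a homeobox gene, stood at 3.33 and 3.48 FPKM in Dnd1-KD, 26.9 and 24.5 in CDGC1, 7.38 and 6.43 in CDGC6, and 3.73 and 3.47 in control. Pbx3 was picked for its likeness to Lin28b over these same libraries, so a shared order of the groups follows from that choice. Most like Ago2 were Erlin2 (0.975), Xrcc2 (0.964) and Mpzl1 (0.956). Most like Dicer1 were Hn1l (0.937), Abcd3 (0.935) and the member Xpo5 (0.933), over a range of Dicer1 values that was itself narrow.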

How the data were processed

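RNA was measured in 8 libraries, 2 per group, and groups were taken from the labels. Each deposited table, per its file header, is a Cufflinks gene table of 1 library with an FPKM value and its interval per entry. Per the submitters' processing notes, TopHat2, Bowtie, Cufflinks, Cuffdiff and mm10 were used; versions and roles are not given in the sources used here. Per the labels' protocols, libraries were made with a TruSeq RNA v2 kit, which does not mark strand, so overlapping genes on opposite strands (Dgcr8 and Trmt2a, Ago2 and Chrac1, Lin28a and Gm13061) may share fragments. The files give no read counts, so depth is unknown here. The deposited half-interval was 1.58% to 15.5% of the value for the members other than Dgcr8. Unnamed entries, 76.8% to 85.6% of the FPKM in a library, were not used.

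Symbols joined in any library were kept as 1 unit with summed FPKM (762 of 21975 units). The 1302 small RNA symbols (GENCODE vM21) and 24 symbols turned into dates were left out. The 11878 units at 1 FPKM or more in 2 or more libraries were fitted on log2(FPKM + 1) in limma 3.58.1 under R 4.3.3 (lmFit, then eBayes with a trend, two-sided), a scale that understates changes of low genes, with Benjamini-Hochberg adjustment in each of 6 comparisons. The fit was also run on simulated data with independent noise, in which only units above a set level were changed. That run does not cover libraries that are not independent, nor low genes such as Ago3. Tables were handled with Python 3.11.15, pandas 2.3.3 and numpy 2.4.6, and figures drawn with matplotlib 3.10.9. Members and pathway and marker lists were chosen with earlier results of these data known. All 10 members are named, and of each pathway list the counts and up to 3 genes with the smallest p per comparison; a gene so named in any of the comparisons is given with its values in all groups. The alternatives were other pseudocounts, filters and scalings, only the compared groups, a replicate block, eBayes without trend, the entry of each symbol alone, and leaving out each library.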

Additional observations from a re-analysis of the deposited data

Results flagged for a closer look

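Lin28b differed between the derived lines: the test of CDGC1 against CDGC6 gave 0.73 ± 0.08 on the log2(FPKM + 1) scale (limma, adjusted p = 0.000824), which equals the gap between their differences from the same control, 1.11 in CDGC1 and 0.39 in CDGC6. It was the only one of the 10 genes called between the lines, and both CDGC1 libraries (22.8 and 21.2 FPKM) lay above both CDGC6 libraries (13.4 and 12.3 FPKM). With 1 line each and 2 libraries a line, what else differs between the lines was not tested.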

How the results depend on the processing

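Of the single results of the 10 genes under the alternatives, 1021 stayed on their side of the threshold, 33 lost their call, 20 gained one, and no called value of a member turned its sign. The count of members called in CDGC6 against control was 1, not 2, with no filter, with the replicate block, with eBayes without trend and with each symbol's own entry. It was 3 there with quantile normalization, and 3 in Dnd1-KD against control with quantile normalization, with median-ratio scaling and with only the compared groups. In CDGC1 against CDGC6 it was 2, not 1, with a pseudocount of 0.1 and with no filter, each time adding Drosha, 3 with quantile normalization, which added Drosha and Ago3 (adjusted p = 0.0162), and 3 with the replicate block, which added Xpo5 (0.0294) and Ago2 (0.0392). Leaving out 1 library at a time gave 1 to 2 members called in Dnd1-KD, 2 to 5 in CDGC1 and 0 to 2 in CDGC6 against control, 1 to 3 in CDGC1 against CDGC6, and 3 to 5 and 3 to 4 in CDGC1 and CDGC6 against Dnd1-KD. The calls among all units were then 1363 to 4923, 4084 to 6054, 421 to 2898, 4457 to 5711, 6020 to 7399 and 4660 to 6898 in the same order of comparisons. Of the other pathway genes, Zcchc6, joined with another symbol, was 0.48 (adjusted p = 0.00885) in Dnd1-KD against control but −0.057 (0.920) by its own entry, and Pabpc1 in CDGC6 against Dnd1-KD was 0.04 (0.633) but −0.36 (0.00274) with quantile normalization. For these shifts the cause was not tested. Against control, 7 of 21 pathway gene calls in Dnd1-KD, 16 of 21 in CDGC1 and 1 of 7 in CDGC6 held under every alternative run. In Dnd1-KD against control 57.2% of all calls were higher, 50.1% with quantile normalization and 48.9% with median-ratio scaling. The replicate numbers pair no samples in the labels, and the correlations of deviations between groups were −0.06 to 0.12. The files do not give depth, so what it limits was not tested.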

Other observations

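The host transcript of the miR-290 cluster, D7Ertd143e, was chosen after its values were seen. The files give it only in an entry joined with 6 other symbols, whose deposited interval runs down to 0 in every library. It was listed at 8.05 and 5.06 FPKM in Dnd1-KD, 2.95 and 2.33 in CDGC1, 7.76 and 8.97 in CDGC6, and 10.6 and 14.1 in control.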
